A study of Mus musculus with 12 samples.

Results

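The MHC class II antigen presentation genes followed here are 7 of the 34327 genes in a table of transcript abundance from cultured mouse macrophages. They were taken by gene symbol, and they are H2-Aa, H2-Ab1, H2-Eb1, H2-DMa, H2-DMb1, Cd74 and Ciita, all of which were found. The cells were bone marrow–derived macrophages (BMDMs) of wild-type C57BL/6J mice, grown from marrow in medium conditioned by L929 cells, a fibroblast line that secretes the macrophage growth factor CSF1. They were kept on tissue culture (TC) plates, in gels of type I collagen at 2 mg/ml (low collagen) or in gels at 7 mg/ml (high collagen), and in each of these 3 settings they were left untreated or given the type 2 cytokine IL-4 at 20 ng/ml, for 24 hours by the sample labels. That makes 6 conditions with 2 libraries each, 12 libraries in all, made from polyadenylated RNA of whole cultures. The study asked how the collagen around macrophages alters their response to IL-4. Nothing says that the 2 libraries of a condition came from separate mice or cultures, so p-values measure the spread between these libraries, which may be technical.

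MHC class II molecules carry peptides from taken-up proteins to the cell surface, where CD4+ T cells read them. An α and a β chain pair in the endoplasmic reticulum, the invariant chain (Cd74) fills their groove and steers them to acidic compartments, proteases trim it to a short remnant, and the H2-DM heterodimer then exchanges this remnant for peptide. Transcription of the group depends on the coactivator CIITA, which binds no DNA itself and is held at class II promoters by the RFX, CREB and NF-Y proteins on conserved sequences called the X and Y boxes. Macrophages carry little class II until a cytokine raises it; interferon-γ is the best known of these, and IL-4 is another.

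The 5 H2 members lie close together on chromosome 17 (GRCm38, GENCODE annotation), in the mouse MHC. H2-DMa spans 34119541 to 34139101, H2-DMb1 34153072 to 34160230, H2-Ab1 34257689 to 34269419 and H2-Eb1 34305867 to 34316674 on the plus strand, and H2-Aa spans 34282744 to 34287823 on the minus strand. The promoters were looked at because these genes moved together. In the RefSeq promoter table of GRCm38.p6 (250 bases before to 50 after each gene start), 4 of the 7 members have an entry: H2-Aa, H2-Eb1, H2-DMb1 and H2-DMa. Each window was searched on both strands for GNAAC, letters of the X box, followed by TGATTGG, the Y box, with the motif starts 25 to 35 bases apart. The letters were chosen after the sequences had been seen, and the motifs do not overlap at that distance. H2-Aa, H2-Eb1 and H2-DMb1 hold the pair. The windows of H2-DMa, 34122582 to 34122881 and 34125268 to 34125567, do not. They lie inside the gene, so the sequence at its GENCODE start, 34119541, was not searched. The pair stands in 0.323% of all 32851 windows (106), whereas TGATTGG alone is in 7.82%. The stretch around the pair is printed for H2-Aa and H2-Eb1, and for their class II relatives H2-Eb2 and H2-Ob, to show what the promoters share, with both motifs in capitals.

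H2-Aa, chr17:34287857-34287914, minus strand: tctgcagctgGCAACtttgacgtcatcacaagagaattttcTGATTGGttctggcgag
H2-Eb1, chr17:34305766-34305822, plus strand: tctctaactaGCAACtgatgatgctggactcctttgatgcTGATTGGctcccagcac
H2-Eb2, chr17:34325533-34325589, plus strand: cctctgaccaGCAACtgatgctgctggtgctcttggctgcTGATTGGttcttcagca
H2-Ob, chr17:34238808-34238862, plus strand: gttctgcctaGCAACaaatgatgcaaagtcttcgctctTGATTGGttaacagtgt

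The Y box began 50 bases before the gene start in H2-Aa, 61 in H2-Eb1 and 63 in H2-DMb1. The X start lay 31 bases further upstream in H2-Aa and in H2-DMb1 and 30 in H2-Eb1. The X letters of H2-DMb1 read GTAAC, and its stretch is not shown because it falls inside an annotated first exon. Of the other class II genes, H2-Oa, H2-Ob and H2-Eb2 hold the pair. H2-DMb2 does not in its window, 34144999 to 34145298, which lies inside the gene, past its GENCODE start at 34143307. These are matches of letters in 1 window per start, and nothing was measured here at the promoters.

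**Figure D1:**
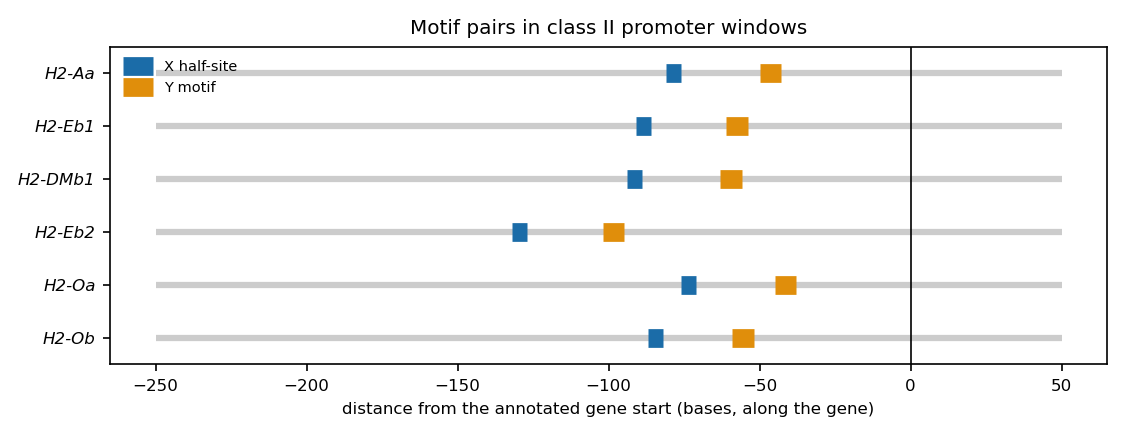
Position of the X start (blue) and the Y box (orange) in the 300-base promoter windows (grey) of the 6 class II genes that hold the pair, in bases from the annotated gene start. The X start and the Y box are 28 to 31 bases apart in all 6 windows.

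The libraries looked like macrophages. The 9 macrophage markers summed to between 17691 and 54075 TPM (abundance per transcript length, as a share of all transcripts of the library), with most of it from Lyz2, the gene of lysozyme. Among markers of other cells that carry class II, the B cell marker Ms4a1 was at or under 0.622 TPM in all 12 libraries, and Flt3, Zbtb46, Xcr1, Clec9a and Ccr7 of the dendritic cell list stayed under 1 TPM throughout. Others on these lists were higher: Cd79b of the B cell list reached 6.30 TPM, and Kmo, Batf3 and Itgax of the dendritic cell list reached 8.67, 53.4 and 138 TPM. The T and NK cell list summed to at most 0.903 TPM, with Ncr1, Ifng and Gzma at 0 in every library, and the fibroblast list to at most 0.833 TPM. In RNA from whole cultures, fewer cells of a type and less RNA per cell cannot be told apart.

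All 7 members had their highest mean in gels with IL-4, and all but H2-DMb1 their lowest on untreated TC plates. Their TPM summed to 80.4 and 80.8 on untreated plates, 163 and 170 on plates with IL-4, 206 and 242 in untreated low-collagen gels, 263 and 287 in untreated high-collagen gels, and, in IL-4-treated gels, 951 and 981 at low and 1111 and 1222 at high collagen. The 6 conditions do not overlap in this sum. Cd74 made up 16.1 to 22.9% of it in the 6 untreated libraries, 47.2 and 47.5% on plates with IL-4, and, in IL-4-treated gels, 63.8 and 66.6% at low and 71.1 and 72.7% at high collagen.

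**Figure D2:**
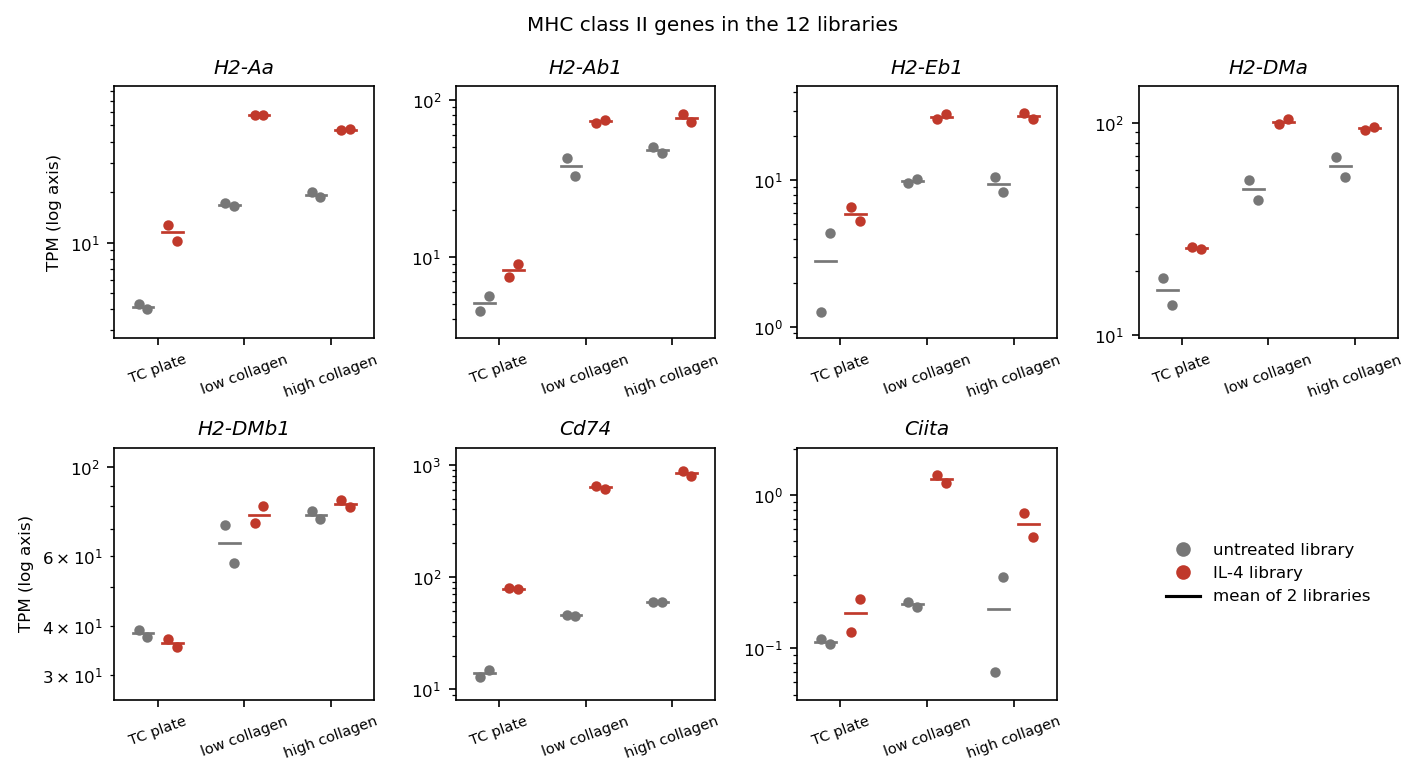
TPM of the 7 members (log axis, a separate range in each panel) in each of the 12 libraries, by substrate, untreated (grey) or with IL-4 (red); horizontal lines are the means of 2 libraries. Cd74 runs from 12.99 TPM on an untreated plate to 888 TPM in a high-collagen gel with IL-4, whereas H2-DMb1 stays between 35.3 and 82.7 TPM.

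Of the 7 members, 6 reached a mean of 1 TPM and were tested with limma on log2(TPM + 1) across all genes, and Ciita did not. A gene was called at a Benjamini-Hochberg adjusted p under 0.2, the study's own threshold. IL-4 raised 6 of 6 tested members in low-collagen gels, where 13.2% of all genes tested were called higher and 40.4% lower. It raised 5 of 6 in high-collagen gels (11.5% of all genes higher, 22.8% lower) and 5 of 6 on TC plates (14.7% higher, 24% lower). The exception was H2-DMb1 in each case. The median log2 fold change of the 6 was 1.22 in low-collagen gels, 0.96 in high-collagen gels and 0.82 on plates, against −0.19, −0.10 and −0.06 over all genes tested. The sum of the dendritic cell list rose with IL-4 as well: its 12 genes summed to 15.9 to 20.5 TPM in the untreated libraries, 143 and 153 on plates, 154 and 159 in low-collagen gels and 92.1 and 100.01 in high-collagen gels with IL-4. Most of that came from Itgax and Batf3, and the 5 dendritic markers at under 1 TPM named above stayed under 1 TPM in the libraries with IL-4. In each gel density 4 of the 5 dendritic markers tested were called higher with IL-4 (Batf3, Ccl17, Ccl22 and Itgax), and Kmo was called lower. On plates Batf3 and Itgax were called higher, and the other 2 of the 4 tested were not called. Of the 4 dendritic markers tested in gels against plates, Batf3 and Kmo were called higher in gels in all 4 comparisons, Ccl22 in 3 of them (not in high-collagen gels without IL-4), and Itgax lower in all 4. The list's median log2 fold change was 0.68 and 0.40 in low- and high-collagen gels without IL-4 and 1.78 and 1.60 with it. The part of these markers in the members' values was not tested.

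Against TC plates, 6 of 6 tested members were higher in gels in each of the 4 comparisons. Without IL-4, 28.5% of all genes tested were called higher and 44.3% lower in low-collagen gels, and 28% higher and 45.5% lower in high-collagen gels. Among IL-4-treated libraries the shares were 22.8% higher and 52.2% lower in low-collagen gels, and 26.5% higher and 48.1% lower in high-collagen gels. The members' median log2 fold change was 1.64 and 1.93 without IL-4 and 2.14 and 2.01 with it, in low- and high-collagen gels, against −0.13, −0.16, −0.28 and −0.20 over all genes. Low- and high-collagen gels were set against the same plate libraries. Gels and plates also differ in the number of cells per culture and in the breaking up of the gel before RNA was purified, which cannot be told apart from the collagen around the cells. The B cell list was also higher in gels, at 4.49 to 6.84 TPM against 1.11 to 2.01 on plates, mostly from Cd79b, and the granulocyte list was at 13.4 to 31.4 TPM against 4.38 to 9.43, mostly from S100a8 and S100a9, with Ly6g at 0 in all libraries. Their part in the gel comparisons was not tested.

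Between high- and low-collagen gels few members were called. Without IL-4, 1 of 6 was called higher in high-collagen gels, Cd74, where 3.23% of all genes were called higher. With IL-4, 1 of 6 was called higher, again Cd74 (14.1% of all genes), and 1 lower, H2-Aa (6.99%). At an unadjusted p under 0.05, limma took 4 of 6 members without IL-4, where it took 15.7% of all genes. These were Cd74, H2-Aa, H2-Ab1 and H2-DMa, all higher at high collagen. With IL-4 it took 2 of 6, Cd74 higher and H2-Aa lower, and 22.7% of all genes. The collagen by IL-4 interaction, which is the difference of the IL-4 response between the gel densities (high minus low), was called for 0 of 6 members and for 0.363% of all genes in either direction by limma. At an unadjusted p under 0.05 the interaction took 2 of 6 members and 9.88% of all genes. Compared with plates, the response to IL-4 was larger at low collagen for 3 of 6 members, where 9.3% of all genes were called higher, and larger at high collagen for 1 of 6, where 8.66% were.

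**Figure D3:**
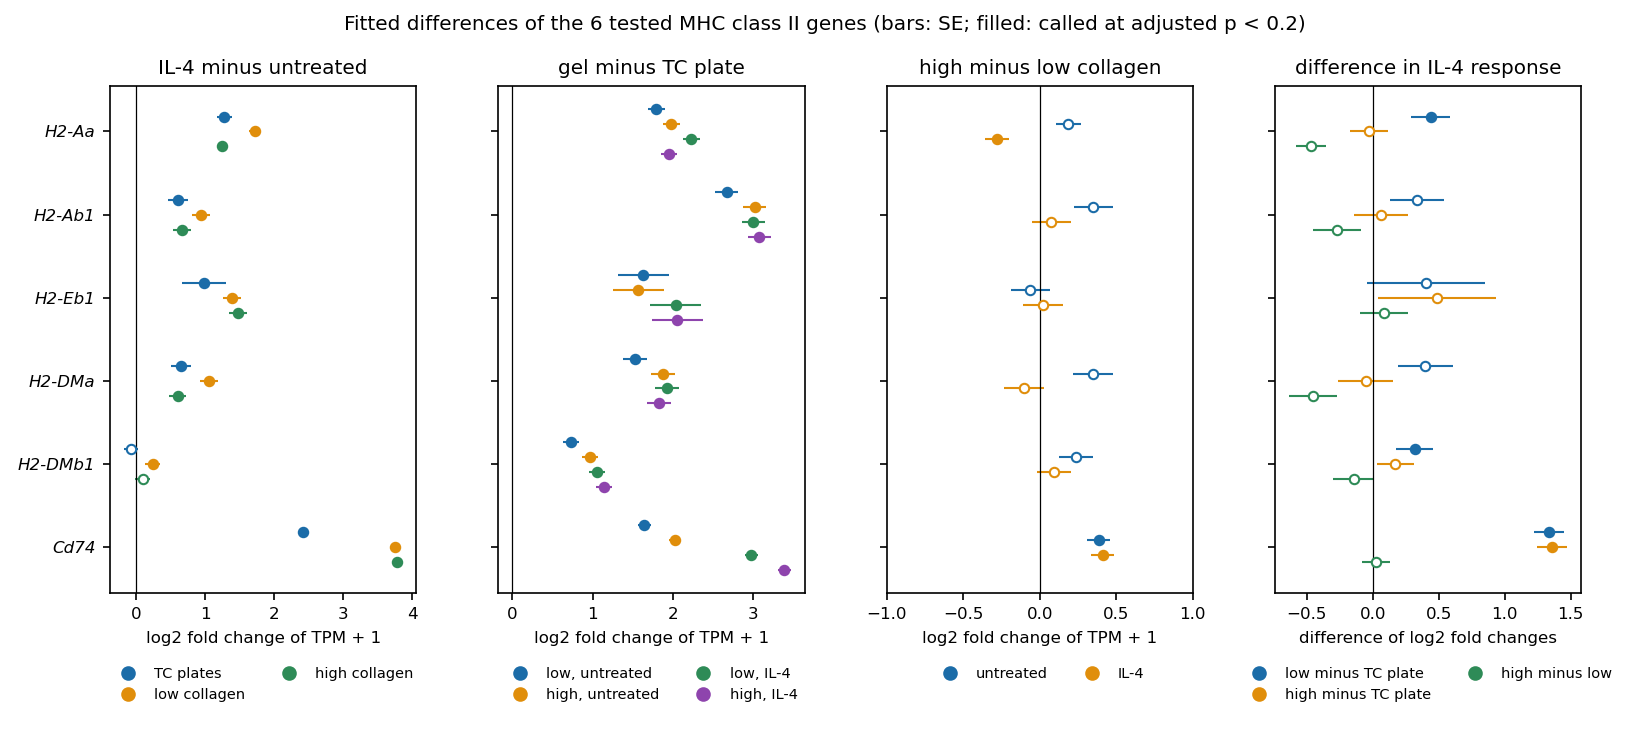
Log2 fold changes of TPM + 1 for the 6 tested members with their standard errors, for IL-4, gels against TC plates, high against low collagen, and differences between IL-4 responses; filled points were called at an adjusted p under 0.2. Every point of the gel panel lies above 0, from 0.73 for H2-DMb1 to 3.39 for Cd74.

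TPM are shares of a fixed total, so a rise of abundant genes lowers the rest. When the libraries were rescaled by median ratios, the median over all genes in low-collagen gels with IL-4 against plates with IL-4 moved from −0.28 to 0.01. The share of higher calls among all calls moved from 24.7 to 52.2% for IL-4 in low-collagen gels, from 33.6 to 54.9% for IL-4 in high-collagen gels and from 38 to 48.2% on plates. For gels against plates it moved from 30.4 to 39.2% up to 50.2 to 50.9%, and for high against low collagen with IL-4 from 66.9 down to 48.6%. For the interaction it moved from 53.5 to 38.5%, and for the IL-4 responses against plates from 33.3 to 59.1% (low collagen) and from 50.1 to 61.5% (high collagen). All calls of members given above were also made after rescaling, and those for IL-4 and for gels against plates had larger log2 fold changes there.

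Cd74 (18:60803848 to 60812652, plus strand) encodes the invariant chain. It stood at 12.99 and 14.9 TPM on untreated plates and 80.4 and 77.6 with IL-4. In low-collagen gels it stood at 46.4 and 44.9 untreated and 654 and 607 with IL-4, and in high-collagen gels at 59.5 and 60.3 untreated and 888 and 790 with IL-4. The 6 conditions are fully apart, and the order from low to high is plates, low collagen and high collagen untreated, then the same order with IL-4.

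The response of Cd74 to IL-4 was the largest among the members on each substrate. Its log2 fold change was 3.76 ± 0.07 (SE) in low-collagen gels (adjusted p = 1.06e-07), 3.78 ± 0.07 in high-collagen gels (adjusted p = 1.31e-07) and 2.42 ± 0.08 on plates (adjusted p = 5.10e-08). As ratios of mean TPM these are 13.8, 14.0 and 5.66. Ranked by size of log2 fold change among the 11852 genes tested in gels, Cd74 was number 38 at low and 28 at high collagen. The response exceeded that on plates by 1.34 ± 0.11 on the log2 scale in low-collagen gels (adjusted p = 1.69e-04) and by 1.36 ± 0.11 in high-collagen gels (adjusted p = 1.67e-04), and these differences were called in all 19 settings of the fit. By mean TPM among all 34327 genes, Cd74 moved from rank 7422 on untreated plates to 2039 with IL-4, from 3122 to 253 in low-collagen gels and from 2356 to 197 in high-collagen gels.

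Gels also held more Cd74 than plates. The log2 difference was 1.65 ± 0.08 in low- and 2.03 ± 0.08 in high-collagen gels without IL-4, and 2.98 ± 0.08 and 3.39 ± 0.08 with it, or 3.27, 4.29, 7.98 and 10.6 times by mean TPM (adjusted p at most 2.13e-07).

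Cd74 was also the only member called for collagen density both without and with IL-4. H2-Ab1 (0.35 and 0.07) and H2-DMb1 (0.24 and 0.09) were higher at high collagen in both as well, and were not called. For Cd74, high-collagen gels exceeded low-collagen gels by 0.38 ± 0.07 without IL-4 (adjusted p = 0.0709) and by 0.41 ± 0.07 with it (adjusted p = 0.0288), a ratio of mean TPM of 1.31 and 1.33. The first of these calls was lost when low collagen untreated replicate 2, high collagen untreated replicate 1 or high collagen untreated replicate 2 was left out, with an adjusted p of 0.213, 0.217 and 0.238. With IL-4 the call was made in all 15 settings, at an adjusted p of at most 0.167. The interaction was 0.03 ± 0.10 (adjusted p = 0.958), so the proportional response of Cd74 to IL-4 was not distinguishable between the gel densities.

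H2-Aa and H2-Ab1 encode the α and β chains of I-A, the main class II molecule of C57BL/6 mice. H2-Aa stood at 4.30 and 3.997 TPM on untreated plates and 12.8 and 10.3 with IL-4, at 17.1 and 16.6 in untreated low-collagen gels and 19.9 and 18.7 in untreated high-collagen gels. With IL-4 it reached 57.8 and 57.3 in low-collagen gels and 46.9 and 47.6 in high-collagen gels. No pair of conditions overlaps, and the top place belongs to low-collagen gels with IL-4, unlike for Cd74.

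H2-Ab1 stood at 4.54 and 5.60 TPM on untreated plates and 7.44 and 9.01 with IL-4. In gels it stood far higher without the cytokine, at 42.8 and 32.9 in low collagen and 50.2 and 46.1 in high collagen, and with IL-4 at 71.2 and 74.7 in low and 81.7 and 72.2 in high collagen. Low- and high-collagen gels with IL-4 overlap for this gene, and the untreated gel groups do not. Untreated cells in gels had more H2-Ab1 than IL-4-treated cells on plates in every library.

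H2-Aa rose with IL-4 by 1.71 ± 0.08 in low-collagen gels (adjusted p = 5.89e-06), 1.25 ± 0.08 in high-collagen gels (adjusted p = 4.67e-05) and 1.28 ± 0.10 on plates (adjusted p = 1.68e-05). H2-Ab1 rose by 0.94 ± 0.13, 0.66 ± 0.13 and 0.60 ± 0.14 (adjusted p = 0.00135, 0.0108 and 0.0132). Between untreated plates and gels, H2-Ab1 was 2.67 ± 0.14 higher in low- and 3.02 ± 0.14 higher in high-collagen gels on the log2 scale, or 7.47 and 9.49 times by mean TPM, and H2-Aa 1.79 ± 0.10 and 1.98 ± 0.10, or 4.06 and 4.66 times. The ratio of H2-Aa to H2-Ab1 was 0.714 and 0.946 on untreated plates, 1.14 and 1.72 on plates with IL-4, 0.398 to 0.503 in untreated gels, and, in IL-4-treated gels, 0.768 and 0.812 at low and 0.574 and 0.659 at high collagen. The ratio was higher with IL-4 on every substrate with no overlap, and the difference between the chains' responses was not tested.

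With IL-4, H2-Aa was the 1 of the 6 tested members called lower at high collagen. The difference was −0.28 ± 0.08 (adjusted p = 0.0915), a ratio of mean TPM of 0.820, and without IL-4 it was 0.19 ± 0.08 (adjusted p = 0.314). The call with IL-4 was lost when any 1 of the 4 gel libraries with IL-4 was left out, with adjusted p-values of 0.247 to 0.289. The interaction was −0.47 ± 0.11, with an unadjusted p of 0.00357 and an adjusted p of 0.332. Against plates, the IL-4 response of H2-Aa was larger by 0.44 ± 0.15 in low-collagen gels (adjusted p = 0.0914), and in high-collagen gels the difference was −0.03 ± 0.15 (adjusted p = 0.941). The low-collagen call was lost with a pseudocount of 0.1 (0.32, adjusted p = 0.229), without untreated plate replicate 1 (adjusted p = 0.216) and without IL-4 plate replicate 2 (adjusted p = 0.236). For H2-Ab1 neither the gel densities (0.35 ± 0.13 without IL-4, adjusted p = 0.248, and 0.07 ± 0.13 with it, adjusted p = 0.769) nor the IL-4 responses differed past the threshold.

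H2-Eb1 encodes the β chain of I-E, the other class II molecule. C57BL/6 mice make no I-E protein because the gene of its α chain is defective, and that gene, listed as H2-Ea-ps, was at 0 TPM in all 12 libraries. H2-Eb1 stood at 1.27 and 4.38 TPM on untreated plates, 6.54 and 5.31 on plates with IL-4, 9.54 and 10.1 in untreated low- and 10.6 and 8.31 in untreated high-collagen gels, while IL-4-treated gels had 26.3 and 28.3 at low and 29.0 and 26.5 at high collagen. The gel densities overlap without and with IL-4, and the 2 untreated plate libraries lie further apart than those of any other condition by ratio. IL-4 raised H2-Eb1 by 1.38 ± 0.13 in low-collagen gels (adjusted p = 2.19e-04), by 1.47 ± 0.13 in high-collagen gels (adjusted p = 2.43e-04) and by 0.98 ± 0.32 on plates (adjusted p = 0.0514). Gels exceeded plates by 1.63 ± 0.32 (low) and 1.57 ± 0.32 (high) without IL-4 and by 2.04 ± 0.32 and 2.06 ± 0.32 with it (adjusted p at most 0.00172). Leaving out an untreated plate library moved the values without IL-4 to 1.01 and 2.26 at low and 0.95 and 2.20 at high collagen, the lower ones without untreated plate replicate 1 and the higher ones without replicate 2, and they were called each time. The IL-4 value on plates was 0.36 (adjusted p = 0.227) without untreated plate replicate 1, the library at 1.27 TPM, and 0.85 (adjusted p = 0.208) without IL-4 plate replicate 1. Without untreated plate replicate 1, the responses in low- and high-collagen gels exceeded that on plates by 1.03 and 1.11 (adjusted p = 0.0327 and 0.0322), whereas with all libraries the differences were 0.40 ± 0.45 and 0.49 ± 0.45 and were not called.

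H2-DMa and H2-DMb1 encode the α and β chains of the peptide editor H2-DM. H2-DMa stood at 18.6 and 13.9 TPM on untreated plates and 26.0 and 25.6 with IL-4, at 53.8 and 43.3 in untreated low- and 69.1 and 55.3 in untreated high-collagen gels, while IL-4-treated gels had 98.5 and 103 at low and 92.3 and 95.6 at high collagen. Each group with IL-4 lies above its untreated group, and every gel library lies above every plate library. By mean TPM, gels held 2.99 (low) and 3.83 (high) times as much H2-DMa as plates without IL-4, and 3.91 and 3.64 times with it. It rose with IL-4 by 1.05 ± 0.13 in low-collagen gels (adjusted p = 8.62e-04), 0.60 ± 0.13 in high-collagen gels (adjusted p = 0.0186) and 0.65 ± 0.15 on plates (adjusted p = 0.0107). The interaction was −0.45 ± 0.18 (unadjusted p = 0.0404, adjusted p = 0.494), and the excess of the response at low collagen over that on plates, 0.40 ± 0.21 (adjusted p = 0.260), passed the threshold once the libraries were rescaled (0.55, adjusted p = 0.173).

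H2-DMb1 was the member that responded least to IL-4. It stood at 39.0 and 37.5 TPM on untreated plates and 37.0 and 35.3 with IL-4, at 71.7 and 57.6 untreated and 72.3 and 79.7 with IL-4 in low-collagen gels, and at 77.6 and 74.3 untreated and 82.7 and 79.3 with IL-4 in high-collagen gels. The log2 fold change was −0.08 ± 0.10 on plates (adjusted p = 0.627), 0.09 ± 0.11 in high-collagen gels (adjusted p = 0.610) and 0.24 ± 0.11 in low-collagen gels (adjusted p = 0.135). The last was the only call, and it was lost without low collagen untreated replicate 2 (0.08, adjusted p = 0.585), without low collagen IL-4 replicate 2 (0.17, adjusted p = 0.449) and with no filter on low genes (adjusted p = 0.233). Gels against plates separated this gene clearly: it was higher by 0.73 ± 0.10 and 0.97 ± 0.10 without IL-4 and by 1.05 ± 0.10 and 1.14 ± 0.10 with it, in low- and high-collagen gels (adjusted p from 6.97e-06 to 1.37e-04). Its response to IL-4 at low collagen exceeded that on plates by 0.32 ± 0.14 (adjusted p = 0.185), a call made in 6 of 19 settings. Per transcript length, H2-DMb1 was the most abundant member in all 6 untreated libraries and gave that place to Cd74 in all 6 with IL-4.

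H2-DMb1 has a close copy, H2-DMb2, next to it. Of all words of 31 bases in the transcripts of H2-DMb1, 31.4% also occur in H2-DMb2, so reads there are divided between them by estimate. The sum of the copies was 41.6 and 40.8 TPM on untreated plates and 38.8 and 36.0 with IL-4, 82.7 and 65.7 untreated and 78.0 and 84.6 with IL-4 in low-collagen gels, and 83.5 and 79.6 untreated and 84.8 and 82.4 with IL-4 in high-collagen gels. The sums overlapped between untreated and IL-4 in both gels. H2-DMa shares 9.23% of its words with Brd2, and the other members share at most 2.77% with any genes.

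Ciita (16:10480059 to 10528418, plus strand), the coactivator of the group, was the least abundant member. It was at 0.114 and 0.106 TPM on untreated plates and 0.128 and 0.210 with IL-4, at 0.201 and 0.186 in untreated low- and 0.0698 and 0.293 in untreated high-collagen gels, while IL-4-treated gels had 1.35 and 1.20 at low and 0.762 and 0.536 at high collagen. The 4 gel libraries with IL-4 lie above the other 8, and the low-collagen pair lies above the high-collagen pair. With no filter on low genes, IL-4 gave a log2 fold change of TPM + 1 of 0.93 in low-collagen gels (adjusted p = 0.00774), 0.48 in high-collagen gels (adjusted p = 0.0956) and 0.07 on plates (adjusted p = 0.819). In the same fit, high- minus low-collagen gels with IL-4 was −0.47 (adjusted p = 0.171), and the response to IL-4 at low collagen exceeded that on plates by 0.86 (adjusted p = 0.0224). A pseudocount of 1 understates changes at this level, and the ratio of mean TPM with IL-4 over untreated was 6.60 in low-collagen gels, 3.58 in high-collagen gels and 1.53 on plates. Without IL-4, Ciita was not called in low- or high-collagen gels against plates (0.10 and 0.08, adjusted p = 0.567 and 0.663). All 6 tested members were called higher in gels there. The ratio of mean TPM of Ciita, gels over plates, was 1.75 at low and 1.64 at high collagen. The low-collagen pair lay above the plate pair, and the high-collagen pair lay on both sides of it. With a pseudocount of 1 the fit could hardly call such ratios at this level, so it does not show that Ciita was unchanged.

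Across the 12 libraries the 7 members varied together to unequal degrees. Pearson's r of log2(TPM + 1) ran from 0.567 between Ciita and H2-DMb1 to 0.974 between H2-Ab1 and H2-DMa. H2-Aa and Cd74 were at 0.938 and H2-Ab1 and Cd74 at 0.764. These values are descriptions over libraries that share 6 conditions. The 5 other genes most like the mean standardised profile of the 6 tested members, among 11865 genes, were Klk1b11 (r = 0.993), Sil1 (0.993), Pla2g15 (0.987), Cbr2 (0.986) and Sdc1 (0.986). The members, which built this profile, ranked from 3 (H2-DMa) to 193 (H2-DMb1) and 238 (Cd74) on the same measure. The pattern was thus not particular to them. Klk1b11, a kallikrein-related protease gene, went from 4.48 and 5.67 TPM on untreated plates to 256 and 282 in low-collagen and 347 and 304 in high-collagen gels with IL-4. Sdc1, the proteoglycan syndecan-1, went from 5.33 and 5.31 to 22.3 and 23.4 and to 25.7 and 22.05 TPM in the same conditions.

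Among the other class II chains, H2-Ob and H2-DMb2 fell with IL-4, whereas no tested member was called lower. H2-Oa was called higher at low collagen only. H2-Oa and H2-Ob encode H2-DO, which restrains H2-DM, and 3 of the 5 chains found were tested. H2-Ob fell with IL-4, by 1.11 in low-collagen gels (adjusted p = 0.00989), 0.52 in high-collagen gels (adjusted p = 0.179, not called after rescaling, at 0.306) and 1.06 on plates (adjusted p = 0.00702), as log2 fold changes. Its TPM went from 11.02 and 9.16 to 3.46 and 4.84 in low collagen, from 17.2 and 19.6 to 9.78 and 15.9 in high collagen and from 2.81 and 3.37 to 0.871 and 1.05 on plates, without overlap on any substrate. H2-DMb2 also fell on all 3 substrates, by 0.73, 0.90 and 0.87 (adjusted p = 0.0324, 0.0236 and 0.0448). Of its words, 36.6% occur in other genes and 29.7% in the more abundant H2-DMb1. All values of H2-DMb2 thus rest on the estimate that divides reads between the copies. H2-Oa rose in low-collagen gels (0.63 ± 0.32, adjusted p = 0.163), and was not called in high-collagen gels or on plates.
Like the members, all 3 were higher in gels than on plates in all 4 comparisons, H2-Ob by 2.25 ± 0.22 in high-collagen gels without IL-4 and 2.79 ± 0.22 with it. H2-Ob was also higher in high- than in low-collagen gels, by 0.81 without IL-4 (adjusted p = 0.158) and 1.41 with it (adjusted p = 0.0230). H2-DMb2 was lower there, by −0.65 without IL-4 (adjusted p = 0.195, not called after rescaling, at 0.205) and −0.82 with it (adjusted p = 0.0678), and H2-Oa was not called. H2-Oa shares 18.3% of its words with BC051537, and H2-Eb2 was at or under 0.131 TPM in every library.

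Of 7 genes of the factors that hold CIITA at the promoter, 0 were called higher with IL-4 on any substrate, where 13.2, 11.5 and 14.7% of all genes were in low-collagen gels, high-collagen gels and on plates. In the lower direction there were 3, 2 and 0, against 40.4, 22.8 and 24% of all genes. On plates limma gave 0 of them an unadjusted p under 0.05. Rfxank was called higher in low-collagen gels after rescaling (0.29, adjusted p = 0.111). Rfx5 and Rfxap, subunits of RFX, fell in low-collagen gels (−0.49 and −0.50, adjusted p = 0.0467 and 0.0287) and in high-collagen gels (−0.62 and −0.46, adjusted p = 0.0316 and 0.0622), and Creb1 fell in low-collagen gels (−0.36, adjusted p = 0.136, not called after rescaling, at 0.426). Against plates, the NF-Y subunits Nfya, Nfyb and Nfyc and Creb1 were lower in gels in all 4 comparisons, where the calls of Nfyb in both gels with IL-4 and of Nfya in high-collagen gels with IL-4 were lost on rescaling. The third RFX subunit, Rfxank, was higher in gels in all 4, by 0.55 to 0.81. Rfxap was also called higher in both gels without IL-4, and Rfx5 in high-collagen gels without it. Rfx5 was called lower in low-collagen gels with IL-4 (−0.29, adjusted p = 0.106, not called after rescaling, at 0.978). Rescaling added higher calls of Rfx5 in low-collagen gels without IL-4 and of Rfxap in high-collagen gels with it. Of all genes, 22.8 to 28.5% were called higher and 44.3 to 52.2% lower in the 4 comparisons. Nfyc went from 32.2 and 32.1 TPM on untreated plates to 15.6 and 18.7 in untreated high-collagen gels, and stood at 34.8 and 34.6 on plates and 18.4 and 16.9 in low-collagen gels with IL-4.

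**Figure D4:**
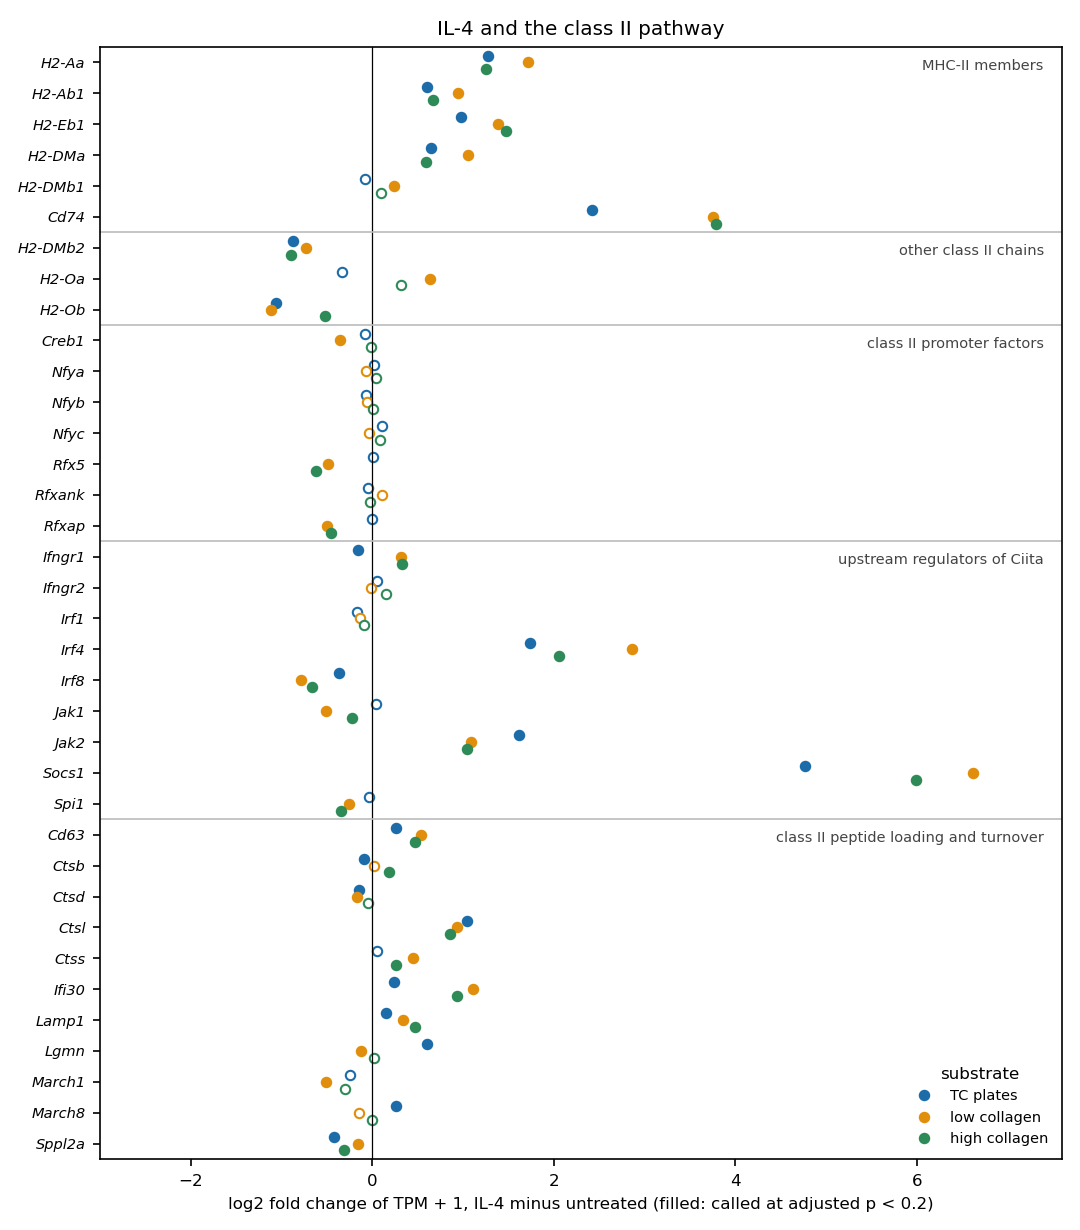
Log2 fold change of TPM + 1 with IL-4 against untreated on TC plates (blue) and in low- (orange) and high-collagen gels (green) for the tested class II members and the genes of 4 pathway lists reported here by name; filled points were called at an adjusted p under 0.2. Cd74, Irf4 and Socs1 lie far to the right on all 3 substrates, and H2-DMb2, H2-Ob and Irf8 to the left.

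Of 10 genes that act on Ciita, 4 rose and 4 fell with IL-4 in each gel density, and 3 rose and 3 fell on plates. Over all genes, 13.2% rose and 40.4% fell in low-collagen gels, 11.5 and 22.8% in high-collagen gels, and 14.7 and 24% on plates, and the 4 of 10 that fell at low collagen are close to that share. After rescaling the list had 5 higher and 2 lower at low collagen, 5 and 3 at high collagen, and 3 and 2 on plates. Irf4, an interferon regulatory factor that IL-4 induces, went from 1.65 and 1.62 to 19.6 and 16.7 TPM in low-collagen gels, from 1.85 and 1.58 to 9.95 and 10.6 in high-collagen gels and from 0.285 and 0.205 to 3.35 and 2.94 on plates. Like H2-Aa and Ciita it was lower in high- than in low-collagen gels with IL-4 (−0.76 ± 0.15, adjusted p = 0.0340). Socs1, an inhibitor of JAK signaling, rose by 6.62, 6.00 and 4.77 on the log2 scale in low-collagen gels, high-collagen gels and on plates, and Jak2 rose by 1.09, 1.04 and 1.62. Irf8 fell by 0.79, 0.67 and 0.37. Rescaling removed the lower calls of Spi1 at low and of Jak1 at high collagen. Ifng, the gene of interferon-γ, was at 0 in all 12 libraries. In gels without IL-4, 6 of the 10 were higher than on plates and 0 lower, in each gel density. Of all genes, 28.5 and 28% were higher and 44.3 and 45.5% lower at low and high collagen. Ifngr1, a chain of the interferon-γ receptor, was higher by 1.48 and 1.60, Irf1 by 1.09 and 1.15, Irf8 by 1.22 and 1.40, Irf4 by 1.08 and 1.13, and Jak1 and Jak2 by smaller amounts. With IL-4, 5 were higher and 2 lower at low collagen (22.8 and 52.2% of all genes). At high collagen 6 were higher and 2 lower (26.5 and 48.1%). After rescaling, the counts without IL-4 were 8 and 0 at each density, and with it 10 and 0 (low) and 7 and 0 (high).

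Of 11 genes that process or turn over class II cargo, 5 rose and 4 fell with IL-4 in low-collagen gels, 6 rose and 1 fell in high-collagen gels, and 6 rose and 3 fell on plates, against the same shares of all genes (13.2% higher and 40.4% lower at low collagen). The 4 of 11 lower are near that background. Ifi30, the lysosomal thiol reductase, rose by 1.11 ± 0.07, 0.93 ± 0.07 and 0.24 ± 0.07 in low-collagen gels, high-collagen gels and on plates, and Ctsl, cathepsin L, rose on all 3 substrates too. Ctss, the cathepsin that trims the invariant chain, went from 3099 and 3133 to 4320 and 4166 TPM in low-collagen gels and from 3491 and 3652 to 4294 and 4281 in high-collagen gels, and stood at 1738 to 1818 on all 4 plates. It was higher in gels than on plates in all 4 comparisons, as were Cd63, Ctsd, Lamp1, Lgmn and March1, the ubiquitin ligase that removes class II from the surface. Ifi30 was lower in both gels without IL-4, and Ctsb in high-collagen gels without it (lost on rescaling). March8 and Ctsl were lower in high-collagen gels without IL-4 and in both gels with it. On rescaling, the call of Ctsl without IL-4 was lost, and that at low collagen with IL-4 turned to higher. Without IL-4, 6 and 6 of 11 were higher and 1 and 4 lower at low and high collagen. With it, 9 and 7 were higher and 2 and 2 lower. Of all genes, 22.8 to 28.5% were higher and 44.3 to 52.2% lower. For IL-4 against untreated in low-collagen gels, the falls of Ctsd, Lgmn and Sppl2a were lost on rescaling, and only that of March1 (−0.51) was kept. On plates those of Ctsb and Ctsd were lost and that of Sppl2a was kept.

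The MHC class I pathway, for comparison, had 9 of 15 genes higher and 3 lower with IL-4 in low-collagen gels, 8 higher and 2 lower in high-collagen gels, and 3 higher and 8 lower on plates. The shares of all genes were 13.2% higher and 40.4% lower, 11.5 and 22.8%, and 14.7 and 24%. After rescaling the counts were 11 higher and 1 lower at low collagen, 8 and 0 at high collagen, and 3 and 7 on plates. B2m, the light chain of class I, rose by 0.20 ± 0.07 and 0.37 ± 0.07 in low- and high-collagen gels (adjusted p = 0.0585 and 0.00905) and fell by 0.56 ± 0.06 on plates (adjusted p = 1.30e-04), and the response in gels minus that on plates was called for both densities (0.76 and 0.93). The heavy chain gene H2-K1 moved the same ways (0.24, 0.27 and −0.25), and the heavy chain gene H2-D1 was not called with IL-4 on any substrate, except after rescaling at low collagen (0.19, adjusted p = 0.121). All 3 were higher in gels than on plates in all 4 comparisons, H2-D1 by 1.13 to 1.23.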

How the data were processed

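Per the labels and the study's methods, RNA of 12 macrophage cultures was sequenced as stranded polyadenylated libraries with paired reads of 38 bases. The authors estimated transcript abundance with kallisto 0.46.1 on Ensembl cDNA of GRCm38 and deposited TPM (abundance per transcript length, as a share of all transcripts) per gene; how transcripts were summed to genes is not given in the sources used here. TPM keep no read counts, so depth is unknown and no counting interval is given. The 34456 lines held 129 repeats of a gene, and 34327 genes remained, with totals of 997505 to 997977 TPM per library, 11543 to 11910 genes at 1 TPM or more and correlations of 0.992 to 0.994 between the libraries of a condition. No libraries held identical values.

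Tests used limma 3.58.1 in R 4.3.3 on log2(TPM + 1) for genes with a mean of at least 1 TPM, with 1 mean per condition, variances moderated along a trend with expression, and p-values adjusted by Benjamini-Hochberg over all genes tested. Fold changes on this scale understate those of low genes. Comparisons among gels used the 8 gel libraries (11852 genes), and those with plates all 12 (11865 genes). Genes were called at an adjusted p under 0.2. The fit was run on simulated data with independent noise and few changed genes. That setting differs from these data, so the run does not give their error rate. The alternatives tried were no filter on low genes, a filter at a mean of 5 TPM, a pseudocount of 0.1, no trend, rescaling by median ratios, a replicate block, an adjusted p under 0.05, the other set of libraries in the fit, and each library left out; the effect of rescaling on the pathway lists was added after seeing the data. Named were all members, the genes of the pathway lists (of class I only B2m, H2-D1 and H2-K1), the marker genes and the 5 genes most like the members. The members and lists were chosen with earlier results of these data known. Tables were handled in Python 3.11.15 with pandas 2.3.3 and numpy 2.4.6. Not all genes of the lists are reported here by name.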

Additional observations from a re-analysis of the deposited data

Results flagged for a closer look

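These results stood out because the response to IL-4 differed between a gel and TC plates by a test of the difference itself, limma's contrast of the IL-4 effects. Cd74 responded more at high collagen than on plates, by 1.36 on the log2 scale (adjusted p = 1.67e-04), and more at low collagen than on plates, by 1.34 (adjusted p = 1.69e-04). H2-Aa responded more at low collagen than on plates by 0.438 (adjusted p = 0.0914), a call made in 16 of 19 settings. H2-DMb1 did so by 0.316 (adjusted p = 0.185), a call made in 6 of 19 settings. The number of cells per culture and the breaking up of the gel differ between gels and plates and cannot be told apart from the collagen.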

How the results depend on the processing

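Of the 6 tested members, the number called for IL-4 was the same or 1 lower under every alternative run, and all 6 were called for gels against plates. With no filter Ciita was called as well, for IL-4 in both gels, for both gels against plates with IL-4, for high against low collagen with IL-4 and for the response at low collagen minus plates. The counts that moved were those of the smaller contrasts. At an adjusted p under 0.05, the members called fell from 1 to 0 for high against low collagen without IL-4, from 2 to 1 with IL-4 and from 3 to 1 for the response at low collagen minus plates. With a library left out, these counts ran from 0 to 4, from 1 to 2 and from 1 to 5, and that for the response at high collagen minus plates from 1 to 2. The signs that turned all belonged to differences that were not called. After rescaling, H2-Eb1 was at −0.0478 for high against low collagen with IL-4 and −0.00409 for the interaction, Cd74 at −0.0649 for the interaction, and H2-Aa and H2-DMa at 0.052 and 0.00624 for the response at high collagen minus plates; with a pseudocount of 0.1, H2-Ab1 was at −0.0135 there. With a library left out, H2-Eb1 ran from −0.219 to 0.0966 for high against low collagen without IL-4, −0.0433 to 0.0872 with it, −0.0746 to 0.241 for the interaction, and −0.221 to 1.03 and −0.137 to 1.11 for the responses at low and high collagen minus plates. H2-Ab1 ran from −0.0139 to 0.162 for high against low collagen with IL-4. For the interaction, H2-DMb1 ran from −0.301 to 0.0109 and Cd74 from −0.0586 to 0.111. For the response at high collagen minus plates, H2-Aa ran from −0.173 to 0.117, H2-Ab1 from −0.0652 to 0.187 and H2-DMa from −0.25 to 0.143. The causes were not tested.

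Without low collagen untreated replicate 1, H2-Ab1, H2-DMa and H2-DMb1 were also called higher in high- than in low-collagen gels without IL-4. Libraries of the same replicate number showed no clear shared shift: over 15 pairs of conditions the correlation of same-numbered deviations ran from −0.123 to 0.109, with 1 over 0.1. With 2 libraries per condition and their origin not stated, this cannot show whether libraries were paired. With the replicate block the members' counts stayed at 6, 5 and 5 for IL-4, 1 and 2 for high against low collagen, 0 for the interaction, 6 in each gel comparison, and 3 and 1 for the responses minus plates, while over all genes 951 calls became 586 for high against low collagen without IL-4 and 43 became 18 for the interaction. TPM hold no depth, so low genes such as Ciita carry an unknown counting error.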
